A study of Danio rerio with 6 samples.

Results

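Zebrafish microRNAs (miRNAs) of the miR-99/100 and miR-125 families were compared between uninjured adult hearts and other adult hearts shortly after injury. Their names on the array are dre-miR-99, dre-miR-100, dre-miR-125a, dre-miR-125b and dre-miR-125c. They were taken by probe name from an array, as 5 of its 218 miRNA probes. All 5 were read far above background in all 6 heart samples, and 0 of the 5 passed the test for a difference at 6 hours, where 3.62% of all 138 tested probes did. Each sample was a pool of hearts from adult Ekkwill (EK) fish, a wild-type strain with no transgene or mutation named in the labels. The uninjured group (0 hours post amputation) and the regenerating group (6 hours after resection of part of the heart under anaesthesia with MS222) held 3 samples each, described as biological replicates. In each group 2 samples were stained with Cy3 and 1 with Cy5. Nothing in the labels says whether the uninjured fish had a sham operation, how many hearts were pooled, or how old or of which sex the fish were.

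A miRNA guides a silencing complex to messenger RNAs that pair with its seed, bases 2 to 8 from the 5′ end. In mammals the miR-99/100 family is known for repressing mTOR, a kinase that drives cell growth. The miR-125 family descends from the same ancestor as lin-4 of Caenorhabditis elegans, the founding miRNA, and in mammals represses LIN28, which blocks maturation of let-7. Published zebrafish work has tied lower miR-99/100 and let-7 to regrowth of the amputated ventricle, so the comparison asks whether the families already differ in the first hours.

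The mature sequences printed on the array's annotation are given because the seed defines each family and the remaining bases decide how well the probes tell the members apart. The seed is in capitals. The last line is miR-10a, the nearest other probe to miR-99 and miR-100.
dre-miR-99: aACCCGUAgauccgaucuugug
dre-miR-100: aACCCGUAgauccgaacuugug
dre-miR-125a: uCCCUGAGacccuuaaccugug
dre-miR-125b: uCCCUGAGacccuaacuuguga
dre-miR-125c: uCCCUGAGacccuaacucguga
dre-miR-10a: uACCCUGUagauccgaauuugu

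The seed ACCCGUA was shared by 2 probes of the array, miR-99 and miR-100, and CCCUGAG by 3 probes, the miR-125 members. Counted from the 5′ end, miR-99 differs from miR-100 by the single substitution U16A, and miR-125b from miR-125c by U18C. miR-125a stands at an edit distance of 3 from miR-125b and 4 from miR-125c. Signal may therefore be shared between probes of one family, above all within the 2 pairs that differ by 1 base. Between the families the edit distance is 7 to 9. Outside the families the nearest target is miR-10a, at an edit distance of 4 from miR-100 and with a shared run of 11 bases. The miR-10 probes give a measure of sharing with probes outside the families, and none of sharing within a family. Here miR-10a and miR-10d were above background in 0 of the 5 samples other than regenerating replicate 1, miR-10c in 1 and miR-10b in 2. In regenerating replicate 1, 217 of the 218 miRNA probes counted as above background. The miR-100 target thus gave no signal past the detection limit on the miR-10a probe in those 5 samples.

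In the GRCz12tu annotation all 5 names matched, to 10 genes in 6 neighbourhoods (miRNA genes less than 50 kb apart), and each of the 6 also holds a let-7 gene. In 4 of them a let-7 gene lies with a miR-99 or miR-100 gene and a miR-125 gene. The 2 miR-100 genes neighbour let-7a and miR-125b genes, and the 2 miR-99 genes neighbour let-7c genes, with miR-125b at one locus and miR-125c at the other. The remaining 2 neighbourhoods pair miR-125a with let-7d. miR-125b has 3 genes and miR-125c has 1. The array reads the mature product, so loci of one miRNA cannot be told apart.

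Intensities of the 5 probes were first taken as the mean of 12 spots minus the local background, without scaling between arrays. The dre-miR-99 probe read 10706, 13821 and 14104 in replicates 1, 2 and 3 of the uninjured group, and 12553, 8713 and 9903 in the same order in the regenerating group. The dre-miR-100 probe read 15384, 19837 and 20260 against 19381, 14476 and 16216. In both, regenerating replicate 1 lay inside the uninjured range and regenerating replicate 2 lay below it. The dre-miR-125a probe read 18083, 25424 and 27406 in the uninjured samples and 24011, 15903 and 16553 in the regenerating ones. The dre-miR-125b probe read 19471, 26436 and 27675 against 24501, 17559 and 18053. The dre-miR-125c probe read 18732, 25199 and 26684 against 22919, 16349 and 16657. The 3 miR-125 probes therefore followed one order, with uninjured replicate 3 brightest and regenerating replicate 2 dimmest, with regenerating replicates 2 and 3 below all uninjured samples. Regenerating replicate 1 lay inside the uninjured range for all 5 probes, and so did regenerating replicate 3 for miR-100.

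**Figure D1:**
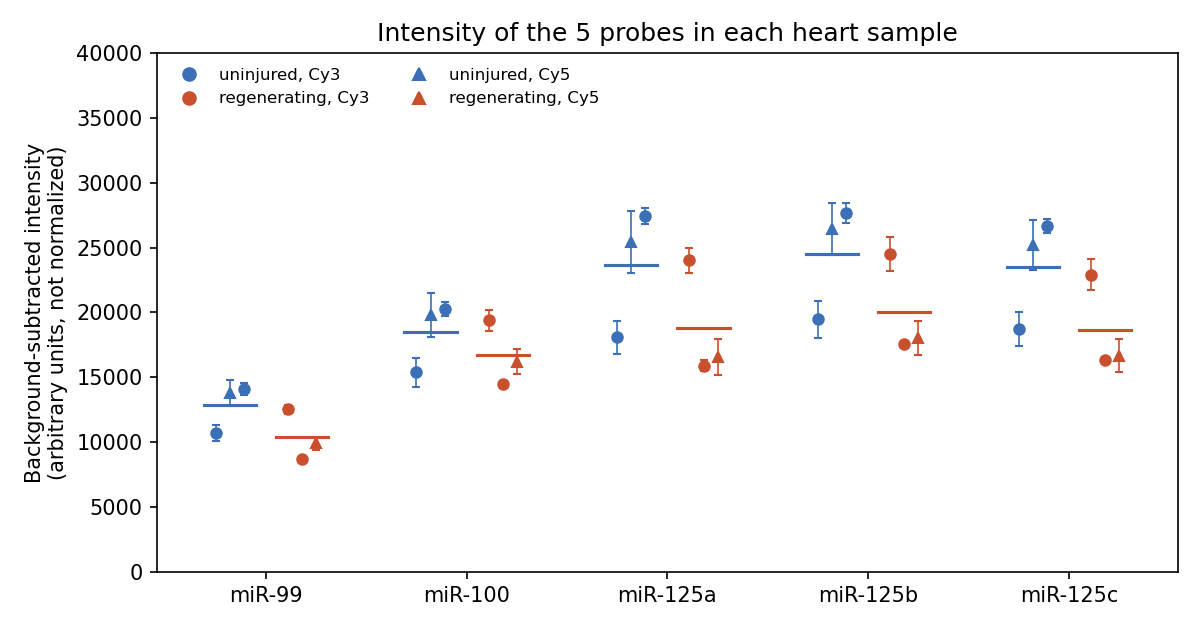
Background-subtracted intensity (arbitrary units, vertical axis from 0) of each of the 5 probes in the 3 uninjured (blue) and 3 regenerating (orange) samples. Each point is 1 sample with the SD over its 12 spots, circles are Cy3 and triangles Cy5, and horizontal lines are group means; the groups overlap for every probe.

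Spots of the same probe gave close values within an array, which does not bear on the spread between arrays. The coefficient of variation over the 12 spots ran from 0.928% to 9.52% (median 5.34%) over the 30 combinations of probe and sample. Signals were 61.3 to 2459 times the detection limit, set at 3 SDs of the empty spots. The brightest spot of a member reached 20.3% to 63.0% of the brightest spot on its array. Mean intensity over all miRNA probes was 3832, 4651 and 4406 in the uninjured samples and 4297, 2889 and 2539 in the regenerating ones, so the fall in unscaled signal in regenerating replicates 2 and 3 was not limited to these families. Probe brightness also depends on how well each sequence binds, so a brighter probe is not read as a more abundant miRNA. Ratios between probes, given below, are compared only between the groups.

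Over the whole array the usual markers of heart tissue were present. The 4 heart muscle miRNAs (miR-1, miR-133a, miR-133b, miR-499) were detected in all 6 samples. Of other cell types, the liver marker miR-122 was detected in 3 uninjured samples and 1 regenerating one. Its normalized log2 value was 8.57 in regenerating replicate 1 and at most 7.11 in the other samples. Of the 3 neuron markers 0 passed the detection filter. Summed unscaled intensity, uninjured against regenerating, was 27 to 38 against 11 to 396 for liver and 13 to 56 against 14 to 219 for neurons. Of the 7 epithelial markers 6 were tested and 1 was called. Summed unscaled intensity of the epithelial markers was 724 to 1309 in the uninjured samples and 326 to 993 in the regenerating ones. It was 106165 to 110502 against 62029 to 106433 for heart muscle, 18151 to 18851 against 8432 to 17370 for smooth muscle and 6064 to 6845 against 3075 to 6383 for leukocytes. For endothelium (miR-126) it was 38376 to 41200 against 26583 to 38654. For red blood cells (miR-451 and miR-144, of which 1 was tested) it was 21600 to 27803 against 17097 to 25475. After quantile normalization the median log2 change was 0.56 over the leukocyte markers, with 2 tested of 4 on the array, and -0.35 over the epithelial ones. It was 0.075 and 0.12 over those of heart and smooth muscle. Within each of these lists the markers went both ways. Leukocyte markers stood at 1.16 (miR-223) and -0.038 (miR-150), and smooth muscle ones at 0.44 (miR-145) and -0.19 (miR-143). Epithelial ones ran from -0.81 (miR-200b) to 0.46 (miR-203b), where only miR-203b lay above 0. Heart muscle ones ran from -0.074 (miR-499) to 0.28 (miR-133a). Any part of these cells in the results for miR-99/100 and miR-125 was not tested. In pooled hearts, fewer cells that hold a miRNA and less of it per cell cannot be told apart.

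After quantile normalization the 5 probes changed little. miR-99 stood at log2 intensities of 13.40, 13.40 and 13.71 in the uninjured samples and at 13.19, 13.40 and 13.71 in the regenerating ones, in replicate order. Each regenerating value was thus equal to or below an uninjured one with this normalization, which did not hold with 1 factor per array (below). miR-100 stood at 14.08, 14.01 and 14.01 against 14.01, 14.17 and 14.29, with regenerating replicates 2 and 3 above all uninjured samples and replicate 1 level with 2 of them. Among the miR-125 members, miR-125a stood at 14.31, 14.34 and 14.52 against 14.34, 14.31 and 14.31. miR-125b stood at 14.39, 14.39 and 14.61 against 14.39, 14.45 and 14.52. miR-125c stood at 14.34, 14.31 and 14.39 against 14.29, 14.34 and 14.34. In all 3 the highest value was that of uninjured replicate 3, which with 1 factor per array (below) held for miR-125a only. All groups overlapped.

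Group means moved by at most 0.12 on the log2 scale. miR-100 was 1.09-fold the uninjured level (95% interval 0.870 to 1.36), from 14.03 ± 0.042 to 14.15 ± 0.14 (SD, n = 3 each). Its log2 change was 0.12 with an SE of 0.13 (limma adjusted p = 0.654). miR-99, its relative by 1 base, stood at 0.954-fold (0.694 to 1.31), with 13.50 ± 0.18 against 13.44 ± 0.26 (SD, n = 3 each), or -0.068 on the log2 scale (SE 0.19, limma adjusted p = 0.845). Of the miR-125 members, miR-125a was at 0.953-fold (0.768 to 1.18; log2 change -0.069, SE 0.13, limma adjusted p = 0.800). miR-125b was at 0.992-fold (0.788 to 1.25; log2 change -0.011, SE 0.13, limma adjusted p = 0.972) and miR-125c at 0.984-fold (0.805 to 1.20; log2 change -0.023, SE 0.12, limma adjusted p = 0.912). These intervals reach from 0.768-fold to 1.25-fold over the miR-125 members and do not show that levels were equal.

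With limma, 0 of the 5 members passed an adjusted p of 0.05 and 0 had an unadjusted p below 0.05, where 3.62% of the 138 tested probes passed (1.45% higher, 2.17% lower) and 20.3% had an unadjusted p below 0.05. The groups overlapped in all 5, while 23.9% of tested probes had groups that did not overlap. The median log2 change of the members was -0.023, beside -0.052 over all tested probes; 1 member lay above 0 and 4 below. The change of miR-100 was larger in size than that of 31.9% of tested probes, and the changes of the other members exceeded 3.62% to 18.8%.

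The rank step of quantile normalization bears on these values. It replaces each intensity by the mean of all arrays at the same rank, and the 30 member values took only 13 distinct levels. The residual SDs rest on these levels, and that of miR-125c, 0.042, was the lowest of all tested probes. The standard errors above do so only in part. limma draws each residual variance toward a value shared over all tested probes, and the SE of miR-125c was 0.12. With 1 factor per array instead (the 75th percentile of probes detected in every sample), the intervals widened. miR-100 then stood at 1.22-fold (0.766 to 1.93; log2 change 0.28, SE 0.30, limma adjusted p = 0.586) and miR-99 at 1.09-fold (0.691 to 1.71; log2 change 0.12, SE 0.29, limma adjusted p = 0.816). The miR-125 members lay between log2 changes of 0.092 and 0.14 with SEs of 0.29. By sample, miR-99 stood at 13.31, 13.39 and 13.61 against 13.25, 13.65 and 13.76, with regenerating replicates 2 and 3 above all uninjured samples. miR-125b was highest in regenerating replicate 2 (14.65, with 14.57 in uninjured replicate 3), and so was miR-125c (14.55, with 14.52). miR-125a stayed highest in uninjured replicate 3 (14.56). The median of all tested probes was 0.13 with this scaling, so miR-100 lay 0.15 above it and the other 4 members within 0.039 of it. Here too 0 of 5 passed in limma, 3.62% of tested probes did, and the groups overlapped in all 5, where 29.0% of tested probes had groups that did not.

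**Figure D2:**
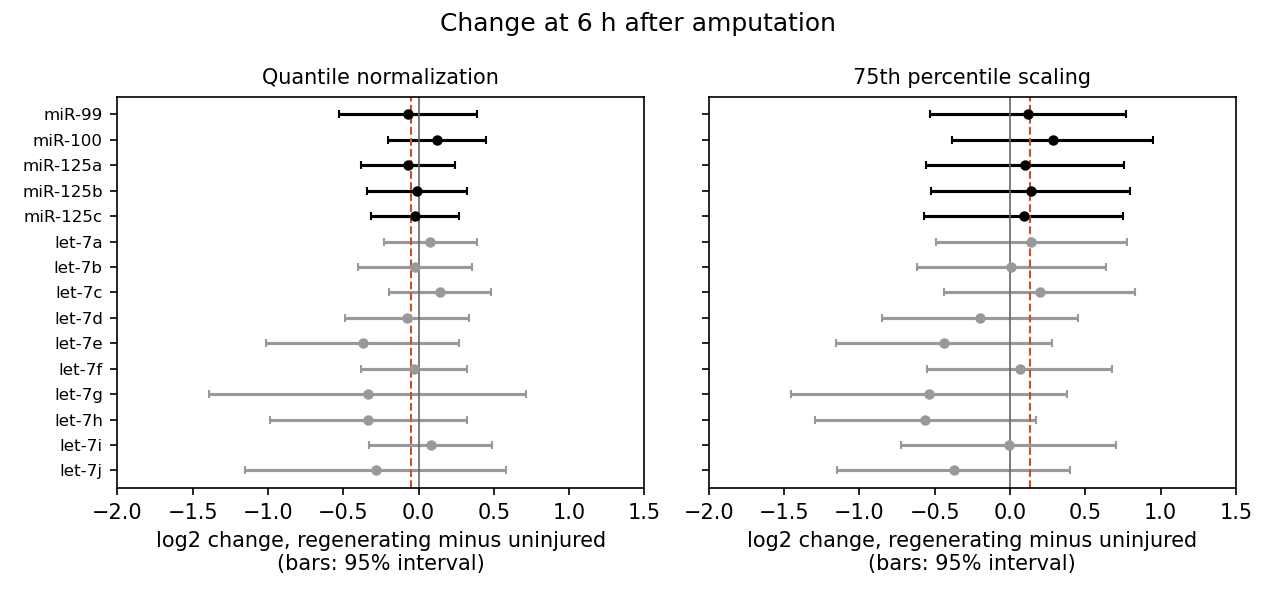
Log2 change (regenerating minus uninjured, horizontal axis) with 95% intervals from limma for the 5 probes (black) and the 10 let-7 probes (grey), after quantile normalization (left) and 75th percentile scaling (right). The dashed line is the median of all tested probes, and every interval spans 0.

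Dye was balanced between the groups, with a term in the fit. Its effect on the members ran from -0.043 for miR-125a to 0.13 for miR-99 (Cy5 minus Cy3, log2; limma adjusted p = 1.00 for each). Within the 4 Cy3 samples the difference in miR-99, regenerating minus uninjured, was -0.26 (13.30 against 13.56), whereas in the single Cy5 pair it was 0.31 (13.71 against 13.40). Its direction thus differed between the dyes. miR-100 was higher in both, by 0.046 in Cy3 and 0.28 in Cy5, and miR-125a lower in both, at -0.087 and -0.035. For miR-125b the differences were -0.081 and 0.13 and for miR-125c -0.052 and 0.035, again of opposite sign. The Cy5 values rest on 1 sample a group and have no replicate check.

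A ratio between 2 probes of the same sample cancels any factor that multiplies both alike. The 5 probes were therefore also set against each other as ratios of background-subtracted intensity. A shift in such a ratio can come from unequal change of 2 miRNAs, but it never tells which of them moved. Signal shared between probes is not cancelled, and its part was not tested. Across the 10 pairs, groups did not overlap in 4. Over all 9453 pairs of tested probes, 36.6% did not overlap when each array was scaled by 1 factor. That share is from log2 values after normexp correction and not from plain ratios. Processed in that way, the members also had 4 of 10 pairs that did not overlap, near the array's background. The 10 pairs reuse 5 bright probes and are not independent. With 3 samples a group the exact permutation test cannot go below p = 0.1, and no pair could pass after adjustment over the 10.

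Both pairs that differ by a single base were among the 4. The ratio of miR-99 to miR-100 was 0.696, 0.697 and 0.696 in the uninjured samples and 0.648, 0.602 and 0.611 in the regenerating ones. All 3 regenerating values lay below the uninjured ones. The means were 0.696 ± 0.00043 and 0.620 ± 0.024 (SD, n = 3 each), a difference of -10.9% (exact two-sided permutation p = 0.1, adjusted p = 0.25). The standard error of 1 ratio from its spots alone was 0.0058 to 0.022, larger than the spread between the uninjured samples. Mean intensity of the 5 probes was 16475, 22144 and 23226 in the uninjured samples and 20673, 14600 and 15476 in the regenerating ones. The part of array brightness in the ratio was not tested. The ratio was lower in the regenerating samples within each dye, at 0.697 against 0.611 in Cy5. In the authors' deposited intensities it was also lower within each dye, but over both dyes the groups overlapped. There the ratio was 0.654, 0.675 and 0.684 in uninjured samples and 0.628, 0.646 and 0.657 in regenerating ones (exact permutation p = 0.2, n = 3 each).

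The ratio of miR-125b to miR-125c was 1.04, 1.05 and 1.04 in the uninjured samples and 1.07, 1.07 and 1.08 in the regenerating ones. This difference of 3.24% was small, and all regenerating values were higher (exact permutation p = 0.1, adjusted p = 0.25, n = 3 each). The spot error of 1 ratio was 0.0053 to 0.033, against a difference between the group means of 1.08 and 1.04. In the authors' deposited intensities the groups were again apart, at 1.03, 1.04 and 1.03 against 1.06, 1.06 and 1.07.

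The other 2 pairs set miR-100 against miR-125 members. Its ratio to miR-125c was 0.821, 0.787 and 0.759 in uninjured samples and 0.846, 0.885 and 0.974 in regenerating ones, a difference of 14.2% (exact permutation p = 0.1, adjusted p = 0.25, n = 3 each). Its ratio to miR-125b was 0.790, 0.750 and 0.732 against 0.791, 0.824 and 0.898, where uninjured replicate 1 and regenerating replicate 1 all but met. Its ratio to miR-125a, at 0.851, 0.780 and 0.739 against 0.807, 0.910 and 0.980, overlapped (exact permutation p = 0.2, n = 3 each). Among the uninjured samples these 3 ratios were highest in replicate 1, the dimmest of them at a mean intensity of 16475. Over all 6 samples they were highest in regenerating replicates 2 and 3, the dimmest arrays for these probes at 14600 and 15476. Regenerating replicate 1, at 20673, was brighter than uninjured replicate 1. Its ratio was higher with miR-125c (0.846 against 0.821), level with miR-125b (0.791 against 0.790) and lower with miR-125a (0.807 against 0.851). The part of array brightness in these ratios was not tested. The ratios of miR-99 to the 3 miR-125 members overlapped, with group means that differed by -1.59% to 1.62%. In the authors' deposited intensities these 3 ratios were 12.5%, 11.2% and 14.1% higher in the regenerating samples for miR-125a, miR-125b and miR-125c, and with miR-125c the groups did not overlap (exact permutation p = 0.1, adjusted p = 0.25, n = 3 each). The 4 pairs apart in that table thus held miR-99 with miR-125c in place of miR-99 with miR-100.

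**Figure D3:**
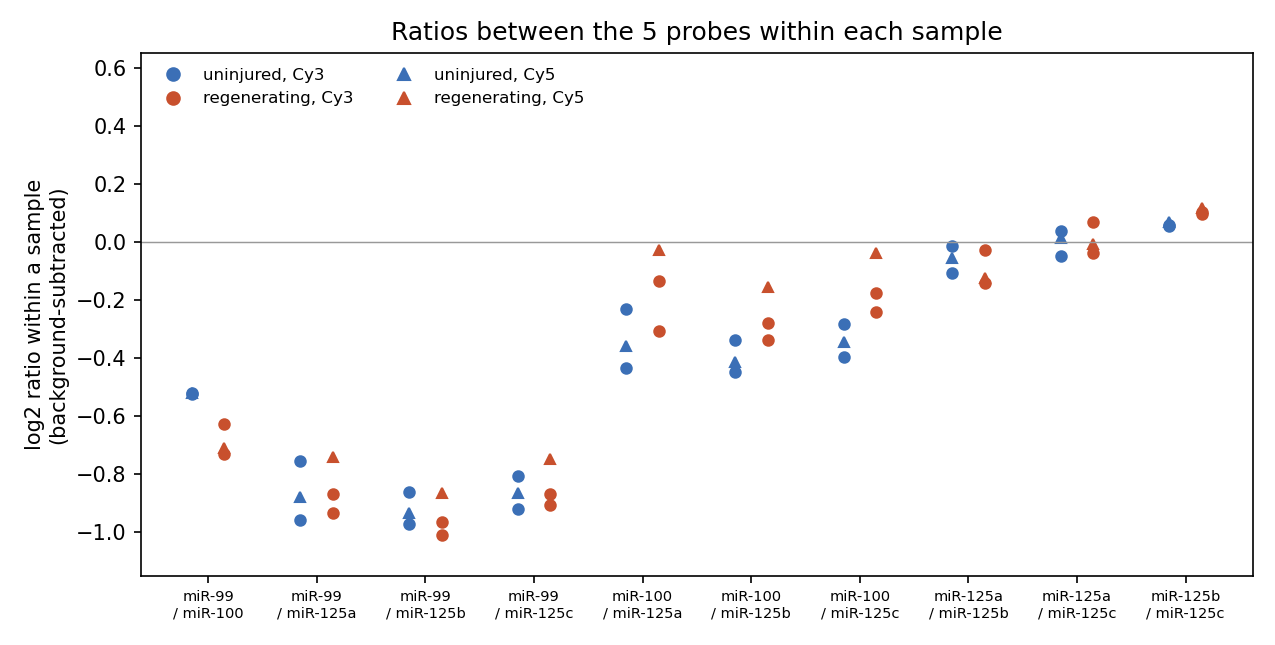
Log2 ratio of background-subtracted intensity between each pair of the 5 probes within a sample (vertical axis), for uninjured (blue) and regenerating (orange) samples, with circles for Cy3 and triangles for Cy5. The 3 uninjured ratios of miR-99 to miR-100 coincide near a ratio of 0.696 and the regenerating ones lie below. The ratios of miR-100 to miR-125b and miR-125c lie higher in the regenerating samples, though for miR-125b the groups all but meet.

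After quantile normalization the same differences had groups that overlapped in all 10 pairs, beside 29.0% of all pairs that did not overlap. The difference of miR-99 minus miR-100 was then -0.53 ± 0.21 and -0.72 ± 0.13 on the log2 scale (SD, n = 3 each; exact permutation p = 0.3). The narrow uninjured spread of the plain ratio is lost because the rank step sets each of the 2 probes to the level of its own rank in each array. In uninjured replicates 1, 2 and 3 these levels were 13.40, 13.40 and 13.71 for miR-99. They were 14.08, 14.01 and 14.01 for miR-100.

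The 10 let-7 probes were set beside them; of these let-7a, let-7c and let-7d have genes that neighbour those of the families. let-7 miRNAs promote differentiation and hold back growth. All 10 were detected in all 6 samples, 0 passed in limma after quantile normalization (0 with an unadjusted p below 0.05), and 3 lay above 0 and 7 below. Their log2 changes ran from -0.37 for let-7e to 0.14 for let-7c, with a median of -0.052. By neighbourhood, let-7a stood at 0.078 beside miR-100 at 0.12, let-7c at 0.14 beside miR-99 at -0.068, and let-7d at -0.074 beside miR-125a at -0.069. With 75th percentile scaling the let-7 probes ran from -0.56 for let-7h to 0.20 for let-7c, with 0 of 10 past the threshold. In that fit let-7a stood at 0.14, let-7c at 0.20 and let-7d at -0.20. Of the miR-10 probes, 1 of 4 passed the detection filter, miR-10b at -0.047. It was detected in 3 of 6 samples but in 2 of the 5 other than regenerating replicate 1, so it passed only through that sample.

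The quantile-normalized values of each member over the 6 samples were also compared with those of all other tested probes. The 2 most alike to miR-99 were miR-365 (Pearson r = 0.97 over 6 samples) and miR-458 (r = 0.93). For miR-100 they were miR-23b (r = 0.93) and let-7i (r = 0.92). For miR-125a they were miR-30b (r = 0.94) and miR-101b (r = 0.93), for miR-125b miR-30a (r = 0.87) and miR-101b (r = 0.83), and for miR-125c miR-141 (r = 0.94) and miR-20b (r = 0.88). These are the highest of many correlations over 6 arrays of shared processing and describe these arrays only. Among the members themselves, miR-99 and miR-125b varied most alike (r = 0.87 over 6 samples), and the correlation of miR-100 with miR-125a was -0.51. With 75th percentile scaling the latter was 0.84 and all members correlated at 0.84 to 0.99, so its sign turned with the scaling.

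Across the 26 alternatives to this processing, 0 of 5 members were called in any. The size of every member's change followed the scaling. Scaled to the calibration spots, the members had a median of -0.74 beside -0.73 over all tested probes. Under median scaling it was 0.35 beside 0.36. Less the median of all probes, the members' median stayed between -0.20 (correction for the G and C content of the target) and 0.13 (cyclic loess). In each of the 27 settings miR-100 had the highest change of the 5, from -0.0095 to 0.32 relative to the median of all probes. The settings share the same samples, so this order is 1 observation and not 27.

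**Figure D4:**
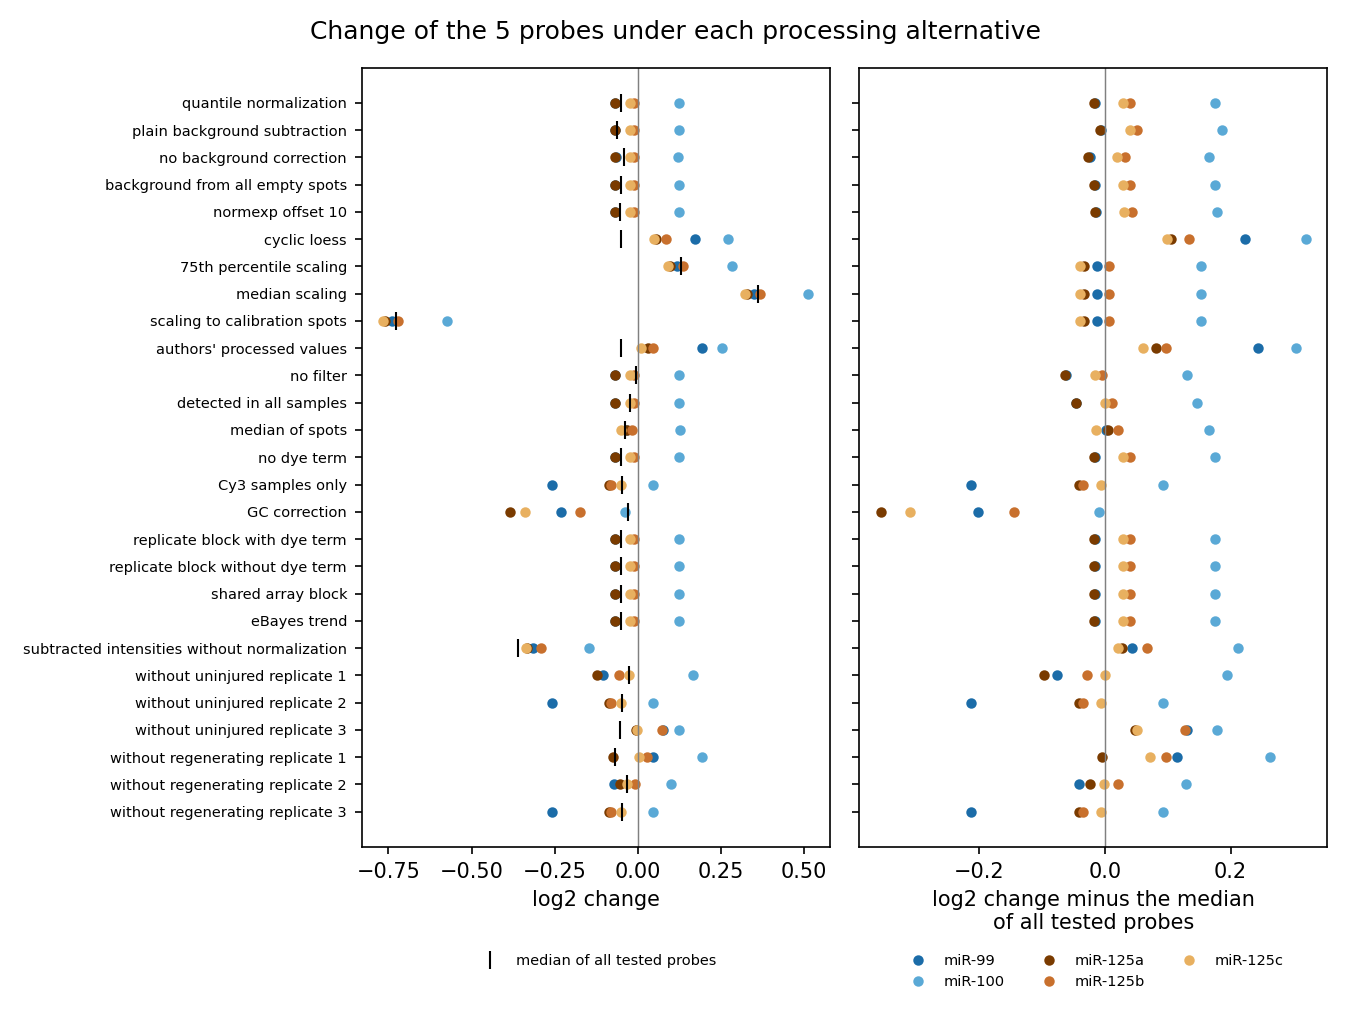
Log2 change of each of the 5 probes under quantile normalization and the 26 alternatives (rows), as such (left, with the median of all tested probes as a bar) and less that median (right). Scaling shifts all 5 together, and miR-100 lies highest in every row.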

How the data were processed

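Small RNA of 6 pooled heart samples was measured on a miRNA array by a service provider that tailed, tagged and stained it, per the labels' protocols. Per the file headers, the deposited values are the mean intensity of each spot on a linear scale; scanner and software: not given in the sources used here. The series' value table holds intensities processed by the authors, with scale factors not given. Its columns had medians of 66.7 to 91.6 over the miRNA probes. Over the tested probes of each sample they correlated, as log2, with the values computed here at r of 0.991 to 0.993. High values thus mean high signal in both, but this r does not bear on changes between groups. Local background was the median of the 16 nearest of 1060 empty spots. Correction used normexp (offset 50) in limma 3.58.1 (R 4.3.3), then log2, the mean of 12 spots and quantile normalization. The 138 probes above 3 SDs of the empty spots in at least 3 samples (110 to 217 detected per sample) entered limma with a dye term and Benjamini-Hochberg adjustment at 0.05. Within-sample differences were tested by exact permutation. Members, lists and tests were chosen with earlier results of these data known. Named probes were the 5 members, the ends of the let-7 and miR-10 lists and each member's 2 most correlated probes; let-7a, let-7c and let-7d were added as genomic neighbours, after their values were seen. Ratios of unscaled intensities, and the lowest and highest marker of a cell type, were added after the data were examined. On simulated spots (20 runs, 156 probes tested in the median run) 95.5% of changes of 1 log2 unit were recovered. Of 455 calls 64 were false, a larger share than the threshold of 0.05 aims at. Changes as small as those of the members were not simulated, so this recovery does not bear on them. The number of arrays limits the precision.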

Additional observations from a re-analysis of the deposited data

How the results depend on the processing

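None of the 5 members was called under any of the 26 alternatives, 1 of which (no scaling between arrays) was chosen after the data were examined. Their directions were not stable. miR-99, miR-125a, miR-125b and miR-125c, below 0 with quantile normalization, stood above it at 0.17, 0.055, 0.084 and 0.049 with cyclic loess, at 0.12, 0.098, 0.14 and 0.092 with 75th percentile scaling, at 0.35, 0.33, 0.37 and 0.32 with median scaling, and at 0.19, 0.032, 0.046 and 0.0098 with the authors' processed values. miR-100, above 0, stood at -0.58 with scaling to calibration spots, -0.039 with GC correction and -0.15 without scaling. Leaving out 1 sample moved miR-99 between -0.26 and 0.077 and miR-100 between 0.046 and 0.19. It moved miR-125a between -0.12 and -0.0050, miR-125b between -0.081 and 0.073 and miR-125c between -0.052 and 0.0023. Without either Cy5 sample, the dye term takes up the other one. Those settings therefore give the same log2 changes as the Cy3 samples only, among them the lower ends for miR-99 and miR-100. The members' median became 0.084 with cyclic loess, 0.12 with 75th percentile scaling, 0.35 with median scaling, -0.74 with calibration spots, 0.046 with the authors' values, -0.081 with the Cy3 samples only, -0.23 with GC correction, -0.32 without scaling and -0.081 to 0.073 with 1 sample left out. Of the 10 pairs of members, the number whose groups did not overlap rose from 0 to 4 with cyclic loess, with the authors' values and without scaling. It was also 4 with each scaling by 1 factor (75th percentile, median, calibration spots), 3 with GC correction and 2 with Cy3 only. With 1 sample left out it ran from 0 to 4 (4 without regenerating replicate 1, 2 without regenerating replicate 3, 1 without uninjured replicate 1 or 3). Over all pairs of tested probes the share was 29.0% with quantile normalization and 36.6% with 1 factor per array. That share was not computed for the other settings. Groups of 2 samples separate more easily than groups of 3, so the counts with Cy3 only or 1 sample left out are not comparable with the others.

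Over all tested probes 5 were called (2 higher, 3 lower). The count was 3 with plain subtraction, 3 with GC correction, 3 with an eBayes trend, 22 with calibration spots (2 higher, 20 lower), 8 without scaling (6 higher, 2 lower), 9 with a shared array as a block and 0 with Cy3 only. With 75th percentile scaling all 5 were higher, and with median scaling all 7. With 1 sample left out it ran from 0 (without uninjured replicate 2 or regenerating replicate 3, the Cy5 samples) and 1 (without uninjured replicate 1 or regenerating replicate 2) to 33 (without regenerating replicate 1). The replicate block gave 1 call with the dye term and 9 without it. Deviations of same-numbered samples correlated at 0.14, -0.45 and 0.37. With mixed signs and no test, these values do not settle whether the numbers pair the samples. The cause of these shifts was not tested. For the shared array, uninjured replicate 2 was paired with regenerating replicate 1, picked from the data by their empty spots (Spearman rho 0.46, at most 0.24 in other pairs).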
